A study of Mus musculus with 12 samples.

Results

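The SPARC family of matricellular proteins was examined in keratinocytes of adult mouse skin (strain given as C57 DBA) that had been sorted on magnetic columns (MACS) into cells with CD34 on their surface (CD34+) and cells without it (CD34-). CD34 sits on the surface of keratinocytes in the bulge of the mouse hair follicle, the niche of slow-cycling follicle stem cells. Per the study's design text, cells were isolated 3 times from pooled skin of at least 6 mice, and each RNA went onto 2 Affymetrix mouse arrays, which gave 6 CD34+ and 6 CD34- arrays. No genotype, treatment or mouse age beyond adult is given, both fractions come from the same kind of skin, and no label tells which arrays carry the same RNA. The members are the 8 genes Sparc, Sparcl1, Smoc1, Smoc2, Spock1, Spock2, Spock3 and Fstl1 of 18193 genes named on the array. They were taken by symbol with every probe set tied to 1 gene alone, which gave 15 probe sets of 45037: 3 for Sparc, 2 each for Smoc2, Spock1, Spock2, Spock3 and Fstl1, and 1 each for Sparcl1 and Smoc1. No value was used to add or drop a gene or probe set, but the family was chosen on a view of the CD34+ against CD34- values, so its differences are given as a description and without p-values.

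Matricellular proteins are secreted into the extracellular matrix, where they tune how cells attach to and signal through it rather than serving as its scaffold. Members of the SPARC family share a follistatin-like domain and an extracellular calcium-binding domain. SPARC itself binds collagens and guides their assembly in the dermis. The SMOC proteins and FSTL1 act on BMP signalling, the pathway that helps to hold follicle stem cells at rest, and the testicans encoded by the Spock genes are proteoglycans that act on proteases.

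The values are log2 RMA expression values, 1 per probe set and array. On this scale a difference of 1 is a doubling, and RMA gives no call of whether a transcript was detected. The Trpn controls, bacterial sequences of the array, read 2.31 to 2.95 and mark the low end of the scale. A probe set passed when its limma adjusted p was under 0.05 over all 45037 probe sets, and errors beside a log2 difference are limma's standard errors. The 6 arrays of a fraction stand for 3 RNA samples, so the fit counts arrays that share an RNA as separate and its threshold is easier to pass wherever such arrays are alike. Positive differences are higher in CD34+ cells. In bulk RNA of a sorted fraction, fewer cells of a type and less RNA per cell cannot be told apart.

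Cd34, the gene of the sorted marker, averaged 10.15 in CD34+ and 3.23 in CD34- arrays. Over all probe sets 21.5% passed, 7.64% with higher and 13.9% with lower values in CD34+ cells, and the lower ones made up 64.6% of the calls. That share was 78.9% after each array was centred on its median. Array quality differed too. For Actb, the excess of the 3' over the 5' control probe set, which widens in partly degraded or short-copied RNA, was 3.95 to 5.65 in CD34+ and 1.82 to 3.24 in CD34- arrays. The values of CD34+ arrays 1, 3 and 5 were compressed, with SDs over all probe sets of 2.07, 1.92 and 2.02, where the other arrays had 2.19 to 2.32, and the part of these measures in the differences was not tested. Values without those 3 arrays are given beside the family members. They are also given beside the related genes named by rule whose call or sign they change, and beside some of the other genes.

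Of the family, Sparc, Smoc1 and Fstl1 were higher in CD34+ cells and Smoc2 was lower, while Sparcl1 and the testican genes Spock1, Spock2 and Spock3 had no probe set that passed. By probe set, 5 of 15 passed higher and 2 of 15 passed lower, beside the 7.64% and 13.9% of all probe sets. The family median difference was 0.28, beside 0.06 over all probe sets. The arrays of the fractions did not overlap for 6 of the 15 probe sets, against 10.9% of all probe sets. These counts come from the comparison in whose view the family was chosen and are not evidence that it stands apart.

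**Figure D1:**
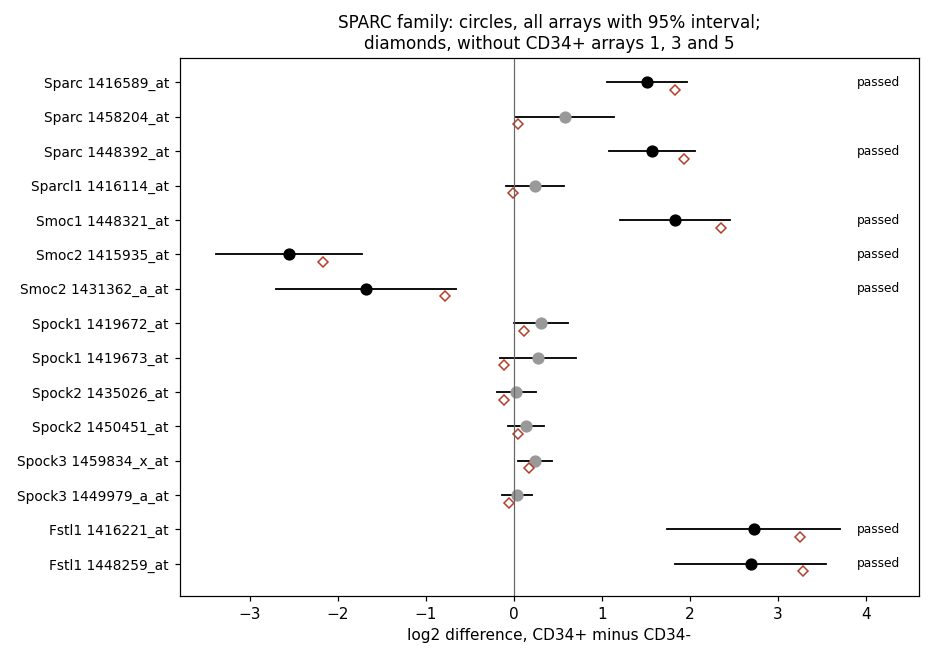
Log2 difference (CD34+ minus CD34-, horizontal axis) of each of the 15 probe sets of the SPARC family. Circles and lines are the differences over all arrays with 95% intervals from limma, black where the probe set passed and grey where it did not, and diamonds are the differences without CD34+ arrays 1, 3 and 5. All 3 Sparc probe sets (1458204_at did not pass), Smoc1 and Fstl1 lie right of 0, Smoc2 lies left of it, and Sparcl1 and the Spock genes lie between 0.03 and 0.30 over all arrays.

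Sparc, the founding member, encodes a secreted collagen-binding glycoprotein also called osteonectin. By probe set 1416589_at it read 7.31 at the lowest, 8.08 at the median and 8.25 at the highest in CD34+ arrays, against 5.95, 6.31 and 6.83 in CD34- arrays. All CD34+ arrays lay above all CD34- arrays, and the difference was 1.51 (SE 0.21), a 2.86-fold higher level in CD34+ cells. Probe set 1448392_at gave nearly the same picture, with 4.80, 5.84 and 6.26 in CD34+ arrays and 3.76, 4.03 and 4.73 in CD34- arrays. Its fractions did not overlap either, and its difference was 1.57 (SE 0.23). Without CD34+ arrays 1, 3 and 5 the differences of these probe sets were 1.83 and 1.93.

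The remaining probe set tied to Sparc, 1458204_at, behaved otherwise. It read 5.19, 5.65 and 6.79 in CD34+ arrays and 4.93, 5.22 and 5.67 in CD34- arrays (lowest, median and highest), so the fractions overlapped. Its difference of 0.58 (SE 0.26) did not pass. CD34+ arrays 1, 3 and 5 alone averaged 6.37, CD34+ arrays 2, 4 and 6 averaged 5.30, and the CD34- arrays averaged 5.25, so that without arrays 1, 3 and 5 the difference was 0.05. Taken as deviations from the mean of the fraction over the 12 arrays, this probe set had a Pearson r of -0.88 with each of the other Sparc probe sets, which had an r of 0.86 with each other, and of -0.98 with the spread over probe sets of the array. These coefficients are descriptions over arrays that share RNA and array quality.

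Sparcl1 encodes hevin, the closest relative of SPARC, which is prominent in endothelial cells and astrocytes. Its only probe set, 1416114_at, read 3.12, 3.39 and 3.95 in CD34+ arrays and 2.94, 3.27 and 3.50 in CD34- arrays. The fractions overlapped, and the difference of 0.24 (95% interval -0.09 to 0.56) did not pass. Without CD34+ arrays 1, 3 and 5 it was -0.02. Of 10 endothelial marker genes 0 passed in either direction by limma, and the mean of the list was 3.52 to 3.85 in CD34+ and 3.46 to 3.55 in CD34- arrays.

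The SMOC genes, which encode a pair of closely related secreted proteins, moved in opposite directions. SMOC1 is known as an antagonist of BMP signalling in frog embryos, and its gene is needed for eye and limb development in mice. Smoc1 (1448321_at) read 5.50, 6.58 and 7.61 in CD34+ arrays, against 4.66, 4.76 and 4.92 in CD34- arrays. The CD34+ arrays were all higher and spread over 2.10 log2 units, while the CD34- arrays spread over 0.26. The difference was 1.83 (SE 0.29), a 3.56-fold higher level in CD34+ cells, and 2.36 without CD34+ arrays 1, 3 and 5.

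Smoc2 is a known marker of stem cells of the mouse intestine. By probe set 1415935_at it read 6.35, 6.64, 7.60, 9.29, 7.31 and 7.62 on CD34+ arrays 1 to 6, against 9.68, 10.00 and 10.50 at the lowest, median and highest of the CD34- arrays. No CD34+ array reached the lowest CD34- array, although array 4 came within 1 log2 unit of it. The difference was -2.55 (SE 0.38), which places Smoc2 5.87-fold lower in CD34+ cells. Probe set 1431362_a_at read 5.23, 6.94, 5.78, 8.72, 5.53 and 6.25 on the same CD34+ arrays, against 7.52, 8.13 and 8.68 in CD34- arrays. Here CD34+ array 4 was higher than every CD34- array, so the fractions overlapped, and the difference was -1.68 (SE 0.48). It passed over all arrays but did not pass without CD34+ array 1, CD34+ array 5 or CD34- array 4, and without CD34+ arrays 1, 3 and 5 the difference was -0.79 and did not pass. Without CD34+ array 4 it was -2.14. The first probe set kept its call in each of these fits, at -2.33 to -2.92 on leaving out single arrays and at -2.17 without the 3 arrays.

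CD34+ array 4, the highest for Smoc2, also had the highest CD34+ level of the T cell and the basal keratinocyte markers, both lower in CD34+ cells. The mean of 8 T cell markers, all of which fell in CD34+ cells, was 6.43 on that array and 5.31 to 5.73 on the other CD34+ arrays, against 7.15 to 8.03 on CD34- arrays. The mean of 7 basal keratinocyte markers, of which 6 fell, was 10.72 on that array and 9.76 to 10.50 on the other CD34+ arrays, against 10.82 to 11.32 on CD34- arrays. Its Langerhans and myeloid level of 5.81 lay among those of the other CD34+ arrays (5.76 to 5.98). The pattern was not particular to the CD34+ fraction. CD34- array 4 was the highest CD34- array for both Smoc2 probe sets (10.50 and 8.68). It was also the highest CD34- array for the T cell (8.03) and basal keratinocyte (11.32) lists. The part of these cells in the Smoc2 values was not tested.

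Fstl1 encodes a secreted follistatin-like glycoprotein that binds BMP4 and is needed for lung development in mice. By probe set 1416221_at it read 4.61, 6.10 and 8.03 in CD34+ arrays, against 3.08, 3.37 and 4.03 in CD34- arrays. All CD34+ arrays were higher, and they spread over 3.41 log2 units, with arrays 1 and 2 at 7.18 and 8.03 and the other 4 at 4.61 to 6.19. The difference was 2.73 (SE 0.46), a 6.63-fold higher level. Probe set 1448259_at read 4.07, 5.70 and 7.50 in CD34+ arrays and 2.77, 3.07 and 3.15 in CD34- arrays, again with no overlap and with a difference of 2.69 (SE 0.40). Its CD34- values lay about the Trpn controls, so the fold of Fstl1 may be understated. Without CD34+ arrays 1, 3 and 5 the differences were 3.25 and 3.28, and leaving out CD34+ array 2, the highest on both, gave 2.37 and 2.33, the smallest on leaving out any single array.

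**Figure D2:**
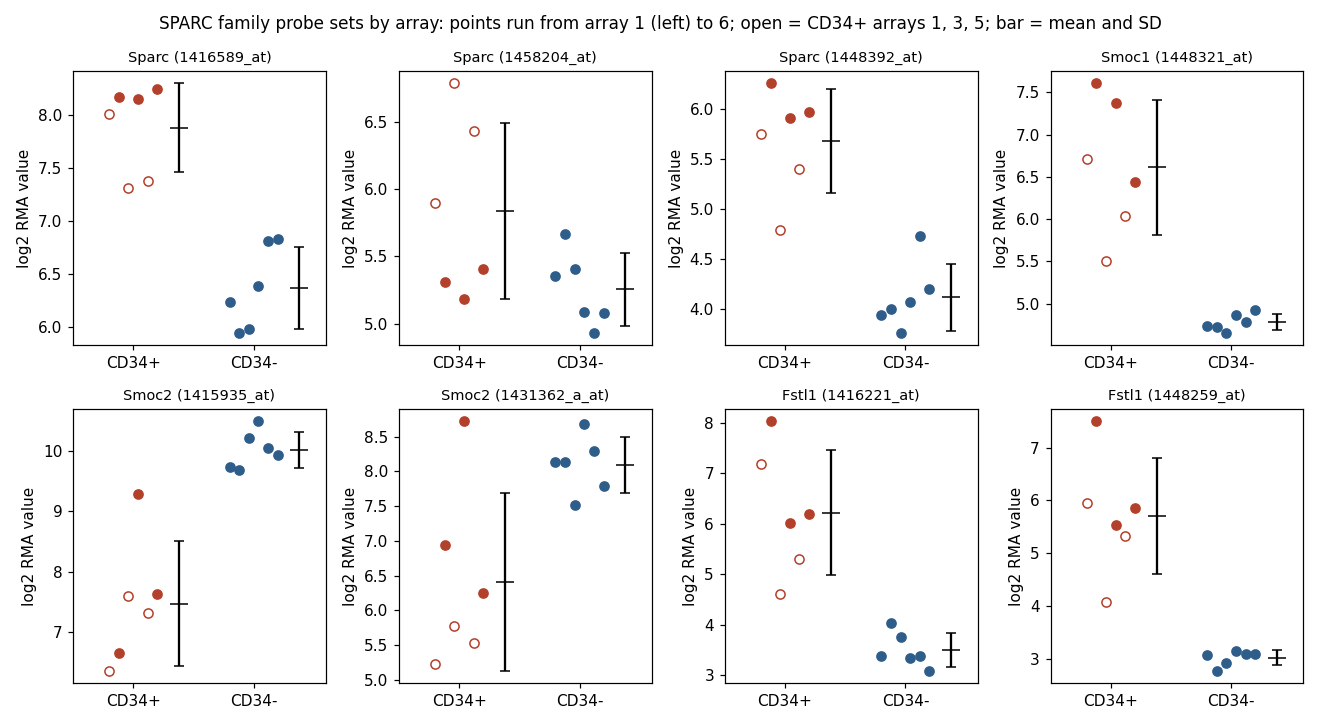
Log2 RMA values (vertical axis) of the 3 Sparc probe sets, Smoc1, the 2 Smoc2 and the 2 Fstl1 probe sets on each array, with CD34+ arrays left and CD34- arrays right, arrays 1 to 6 from left to right within a fraction, and the mean with its SD as a bar (n = 6 arrays). Open points are CD34+ arrays 1, 3 and 5, which lie on the high side for Sparc 1458204_at and mostly on the low side elsewhere, and CD34+ array 4 is the highest CD34+ array for both Smoc2 probe sets.

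Sparc and Fstl1, both higher in CD34+ cells, are shown with the stretch around their start sites, because a shared element there would be a simple feature in common. RefSeq's table (GRCm38.p6) held such windows, from 250 bases before to 50 after the start of the gene, for 5 of the 8 genes, and gave none for Sparcl1, Smoc1 and Smoc2. The windows lie at chr11:55420031-55420330 on the minus strand for Sparc and at chr16:37776805-37777104 on the plus strand for Fstl1. They are written 5' to 3' along the gene, and capitals mark matches to 5 motifs searched on both strands, namely TATAAA as the core of the promoter box of that name, GGGCGG as bound by Sp1, TGANTCA as bound by AP-1, CANNTG as bound by basic helix-loop-helix factors, and the repeat unit GGAGGA.
Sparc: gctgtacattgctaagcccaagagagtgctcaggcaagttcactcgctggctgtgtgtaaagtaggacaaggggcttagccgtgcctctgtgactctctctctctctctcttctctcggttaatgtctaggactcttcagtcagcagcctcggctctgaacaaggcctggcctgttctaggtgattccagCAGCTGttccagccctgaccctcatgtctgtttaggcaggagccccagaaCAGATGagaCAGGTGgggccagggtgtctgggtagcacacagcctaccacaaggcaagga
Fstl1: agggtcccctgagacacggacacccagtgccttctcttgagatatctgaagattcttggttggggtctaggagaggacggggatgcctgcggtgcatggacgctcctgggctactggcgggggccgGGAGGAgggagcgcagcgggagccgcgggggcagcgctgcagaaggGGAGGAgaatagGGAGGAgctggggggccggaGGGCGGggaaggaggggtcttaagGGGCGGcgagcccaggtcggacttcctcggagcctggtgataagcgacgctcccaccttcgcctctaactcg
The Sparc window held 3 matches to CANNTG and none to the other motifs, and CANNTG was found in 72.3% of the 32851 windows of this length in the table. The Fstl1 window held 2 matches to GGGCGG and 3 to GGAGGA and none to CANNTG, with GGGCGG in 35.7% and GGAGGA in 34.5% of all windows. The 2 genes shared no match to any of the 5 motifs in these windows. TATAAA (13.6% of all windows) and TGANTCA (7.81%) matched neither. A match is a run of letters and not a bound site, and absence from this window says nothing of the rest of the gene.

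The testicans are proteoglycans of matrix and brain, and in human cell studies SPOCK1 and SPOCK3 restrain the activation of MMP2 by membrane-type metalloproteinases. None of their 6 probe sets passed. Spock1 read 3.09, 3.66 and 3.82 in CD34+ arrays and 3.02, 3.24 and 3.51 in CD34- arrays by 1419672_at, with a difference of 0.30 (95% interval -0.0036 to 0.61). It passed on leaving out CD34+ array 6, and the difference was 0.12 without CD34+ arrays 1, 3 and 5. By 1419673_at Spock1 read 2.91, 3.30 and 4.27 in CD34+ arrays and 2.78, 3.14 and 3.26 in CD34- arrays, and its difference of 0.28 (95% interval -0.16 to 0.71) was -0.11 without the 3 arrays.

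The fractions overlapped for Spock2 by both probe sets. It read 4.51, 4.72 and 5.16 in CD34+ and 4.66, 4.70 and 4.91 in CD34- arrays by 1435026_at. That difference of 0.03 (95% interval -0.20 to 0.25) was -0.11 without CD34+ arrays 1, 3 and 5. By 1450451_at it read 3.59, 3.84 and 4.14 against 3.63, 3.72 and 3.77. This difference of 0.14 (95% interval -0.07 to 0.34) was 0.05 without the 3 arrays. Spock3 lay at the low end of the scale in both fractions. By 1449979_a_at it read 2.12, 2.24 and 2.46 in CD34+ and 2.19, 2.23 and 2.26 in CD34- arrays, at or below the Trpn controls, with a difference of 0.04 (95% interval -0.13 to 0.20) that was -0.06 without the 3 arrays. By 1459834_x_at, whose suffix marks probes that may also bind other transcripts, it read 2.87, 2.98 and 3.32 against 2.66, 2.81 and 2.90. The difference of 0.24 (95% interval 0.05 to 0.43) passed in the fit with an intensity trend and in no other alternative run. Without the 3 arrays it was 0.17. The intervals are for single probe sets and treat the 12 arrays as separate samples.

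Within the CD34+ fraction the family divided along the spread of the arrays. All 7 probe sets that passed averaged lower on CD34+ arrays 1, 3 and 5 than on CD34+ arrays 2, 4 and 6, and all 8 that did not pass averaged higher. Over all probe sets the medians of arrays 1, 3 and 5 were 4.33, 4.43 and 4.31. Those of arrays 2, 4 and 6 were 4.24, 4.23 and 4.26. The share of all probe sets that split in this way was not counted, so the split is not given as a trait of the family. Smoc1 averaged 6.08 on arrays 1, 3 and 5 and 7.14 on arrays 2, 4 and 6, Fstl1 5.70 and 6.74 by 1416221_at, and Sparc 7.57 and 8.19 by 1416589_at. Smoc2 averaged 7.08 and 7.85 by 1415935_at and 5.51 and 7.30 by 1431362_a_at, so its distance from the CD34- arrays was larger on arrays 1, 3 and 5, whereas that of Sparc, Smoc1 and Fstl1 was smaller. All 15 probe sets varied more among CD34+ than among CD34- arrays, as did 81.1% of all probe sets.

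Among genes outside the family, those with the most similar movement within the fractions were found for the 5 members whose probe set averaged at or above the median of all probe sets. After the mean of the fraction was subtracted, Smoc2 was nearest to the basal keratin gene Krt14 (Pearson r = 0.98 over 12 arrays), the decoy receptor gene Il1r2 (0.97) and Csf1 (0.96). Each outside gene was read here by its probe set of highest r. For Krt14 that was not its probe set of highest mean (differences -1.84 and -1.37). Fstl1 was nearest to Shisa2 (0.98), Trps1 (0.95) and Alcam (0.95), Smoc1 to the WNT receptor gene Fzd2 (0.98), Setd5 (0.97) and Pcmtd1 (0.97), and Sparc to Tcn2 (0.97), Sbsn (0.97) and Tbc1d13 (0.96). Spock2 was nearest to Chrna6 (0.95), Gas2 (0.94) and Selenot (0.93). These are the highest of many coefficients over arrays that share RNA and array quality, and they are a description.

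Genes whose products work with the family were read from 6 lists by role, using for each gene the probe set of highest mean, and 61 of 63 genes were measured. Of these 16 rose and 9 fell in CD34+ cells, beside 7.73% higher and 17.5% lower (25.2% in all) of all 18193 genes, and their median difference was 0.27 beside 0.04. The lists were chosen with earlier results of these data known. Their counts and p-values are therefore a description and not evidence that these genes stand apart. Of 7 collagen genes, the ligands and cargo of SPARC, 4 rose and 0 fell, with a median of 1.14. Col1a2 and Col5a2, which encode chains of the dermal fibrils, rose by 3.15 (SE 0.25, limma adjusted p = 3.73e-06) and 3.02 (SE 0.36, adjusted p = 9.22e-05), and Col1a1 rose by 1.14 (SE 0.20), with another probe set at 0.50 that did not pass (adjusted p = 0.0700). The fourth, Col5a1 (0.44, adjusted p = 0.0488), was picked out after its value was seen. Without CD34+ arrays 1, 3 and 5 Col5a1 was at 0.33 and did not pass. Col4a1, a chain of basement membranes, was at 0.29 (adjusted p = 0.322). Without CD34+ arrays 1, 3 and 5, 3 of the 7 rose and the median was 0.54.

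Of 11 receptors and partners of SPARC, 1 rose and 2 fell. Itgb1, the integrin beta chain through which many cells grip the matrix, fell by 1.16 (limma adjusted p = 0.0231), the growth factor gene Pdgfb fell by 0.96 (adjusted p = 0.00827), and Vtn, encoding vitronectin, rose by 0.62 (adjusted p = 0.0491). With CD34+ arrays 1, 3 and 5 left out these 3 missed the threshold (adjusted p = 0.156, 0.0540 and 0.258), while Pdgfa (0.72, adjusted p = 0.0126) and Serpinh1 (0.85, adjusted p = 0.0229), the collagen chaperone, passed and were higher; over all arrays Pdgfa and Serpinh1 were at 0.47 and 0.41 and did not pass. Itgb1 was also lost without CD34+ array 1, CD34+ array 5 or CD34- array 4, and Vtn in 9 of the 12 fits that left out 1 array. Another probe set of Pdgfb was at 0.02 (adjusted p = 0.835) and one of Vtn at 0.05 (adjusted p = 0.803), while of the others of Itgb1 2 also passed as lower (-0.57 and -0.36) and 3, at 0.05 to 0.19, did not pass.

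Of 12 genes through which FSTL1 and the SMOC proteins meet BMP signalling, 2 rose and 2 fell. Bmp4, a ligand that FSTL1 binds, averaged 6.71 ± 0.59 in the CD34+ fraction, against 8.52 ± 0.16 in the CD34- fraction (SD, n = 6 arrays), and fell by 1.81 (SE 0.22, limma adjusted p = 0.000117). Smad6, an intracellular inhibitor of the pathway, averaged 4.99 ± 1.16 in CD34+ and 2.93 ± 0.14 in CD34- arrays and rose by 2.06 (SE 0.42, limma adjusted p = 0.00328). Its CD34- level was as low as the Trpn controls, so the fold may be understated. Bmp7 fell by 0.48 (adjusted p = 0.0213) but lost its call with CD34+ arrays 1, 3 and 5 left out (adjusted p = 0.0678), with the array number as a block, after a further quantile normalization, and on leaving out CD34+ array 5, CD34- array 4 or CD34- array 5. Of the other probe sets of Bmp7 one also passed as lower (-0.90, adjusted p = 0.0142) and one was at -0.02 (adjusted p = 0.931). Cd14 (0.40, adjusted p = 0.0471), the other gene that rose, was picked out after its value was seen. The receptor genes Bmpr1a (-0.25) and Bmpr2 (-0.29) did not pass, and Bmpr1a was above 0 after a further quantile normalization, while it passed as lower after median centring and without CD34+ array 2. Another of the probe sets of Bmpr1a passed as lower (-1.04, limma adjusted p = 0.000266). Bmpr2 passed as lower without CD34- array 2.

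Among 10 further genes with follistatin-type domains, 1 rose and 2 fell. Fst, follistatin itself, which captures activins and BMPs, rose by 0.97 (SE 0.16, limma adjusted p = 0.000749), while the related Fstl3 fell by 0.65 (SE 0.12, adjusted p = 0.00218) and the secreted protease gene Htra1 fell by 0.98 (SE 0.20, adjusted p = 0.00351). All 3 also passed without CD34+ arrays 1, 3 and 5, and another probe set of Fst was at 0.64 and did not pass (adjusted p = 0.0684). Agrn, which encodes the basement membrane proteoglycan agrin, was at -0.12 (adjusted p = 0.747), but at 0.39 without CD34+ arrays 1, 3 and 5, and it was also above 0 without CD34+ array 3 and after a further quantile normalization.

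Of 17 other matricellular genes measured, 7 rose and 2 fell. Ccn2, encoding a connective tissue growth factor, rose by 4.48 (SE 0.19, limma adjusted p = 2.55e-08), Postn, encoding periostin, by 3.34 (SE 0.20, adjusted p = 4.75e-07) and Tnc, encoding tenascin-C, by 1.55 (SE 0.18, adjusted p = 6.42e-05). Another probe set of Tnc was at 0.20 (adjusted p = 0.173). Tgfbi was at 0.30 (adjusted p = 0.166). The falls, of Thbs2 (-1.22) and Ccn1 (-1.10), were named with their values already known. Of 5 measured protease genes on which testicans act, Mmp14 fell by 0.52 (limma adjusted p = 0.0461) and Mmp24 rose by 0.31 (adjusted p = 0.0489), and with CD34+ arrays 1, 3 and 5 left out both missed the threshold (adjusted p = 0.168 and 0.161). On leaving out single arrays Mmp14 lost its call in 9 of 12 fits and Mmp24 in 10 of 12. Another probe set of Mmp14 passed in the opposite direction (0.42, adjusted p = 0.0114), and another of Mmp24 was at -0.02 (adjusted p = 0.866). Mmp2 (-0.20) and Ctsl (-0.45) did not pass, and without CD34+ arrays 1, 3 and 5 they were at 0.11 and 0.17, with Mmp2 also above 0 after a further quantile normalization. Some genes of the 6 lists that were counted as not passing had other probe sets that passed as higher. Igfbp7 had 2 of these, and Col3a1, Htra3, Tgm2 and Tlr4 had 1 each.

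**Figure D3:**
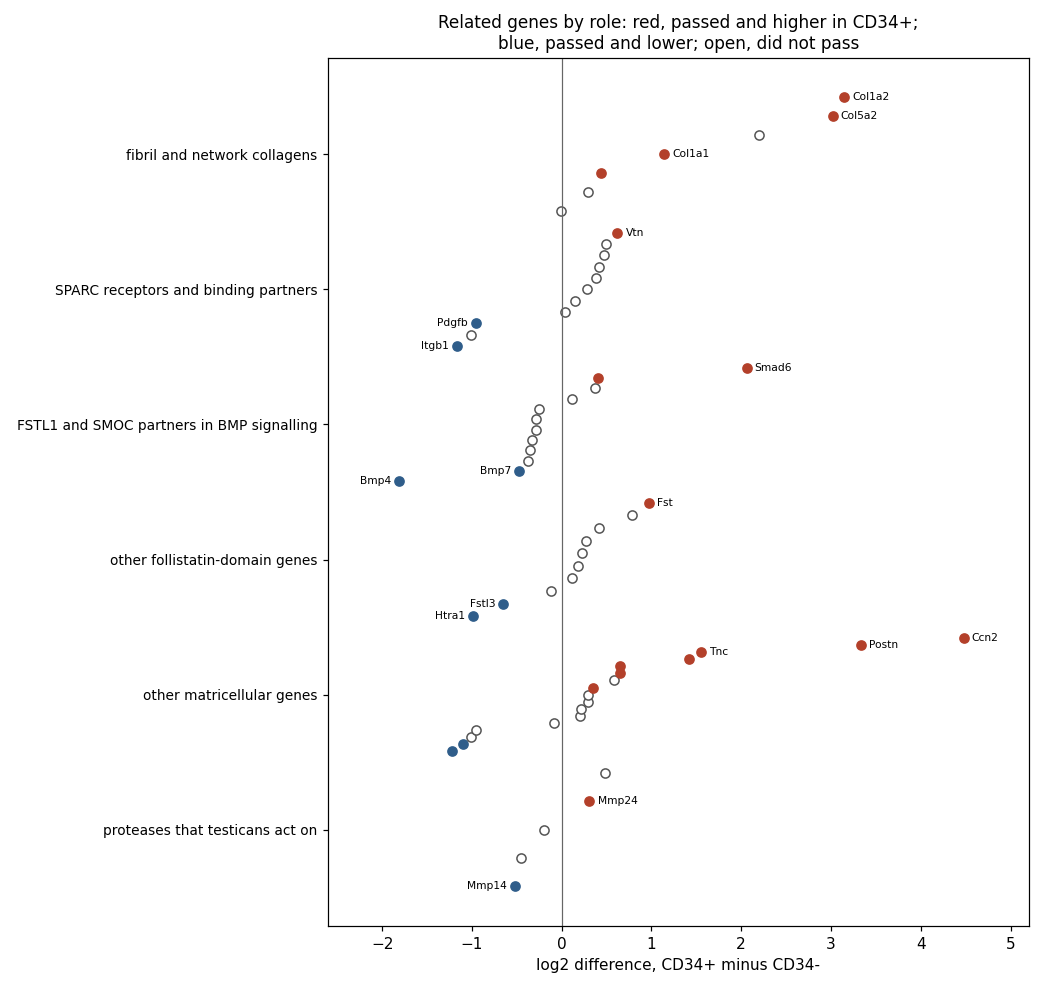
Log2 difference (CD34+ minus CD34-, horizontal axis) of each measured gene of the 6 lists of related genes, 1 point per gene. Red points passed and were higher, blue points passed and were lower, and open points did not pass. The names are those chosen by rule, with Ccn2, Postn, Col1a2 and Col5a2 farthest right and Bmp4 farthest left.

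Fibroblasts of the dermis are a known source of SPARC, FSTL1 and collagen, and their markers moved with the fraction. Of 14 dermal fibroblast markers 8 were higher and 1 lower in CD34+ cells. The lower gene, Thy1, also stands in the T cell list, and 6 of the 14 stand in the lists of related genes above. The sum of the list's log2 values was 69.84 to 83.41 in CD34+ and 57.88 to 66.08 in CD34- arrays, without overlap. Outside the collagens, Dcn (2.21, limma adjusted p = 0.00164), Dpt (1.68, adjusted p = 0.000544), Fbln1 (1.41, adjusted p = 6.52e-06) and Lum (0.63, adjusted p = 0.0364) were higher. Pdgfra (0.95, adjusted p = 0.229, and -0.16 without CD34+ arrays 1, 3 and 5), Mfap5 (0.22, adjusted p = 0.169), Pdgfrb (0.00091, adjusted p = 0.995, and -0.02 without the 3 arrays) and Twist2 (0.10, adjusted p = 0.505) did not pass, and none of the 14 lay within the range of the Trpn controls on all arrays. Lum (3.02), Dpt (3.13) and Pdgfra (3.27) averaged little above the highest Trpn reading of 2.95 on CD34- arrays. On CD34+ array 4 the list mean was 4.99, the lowest of the CD34+ arrays (the others 5.40 to 5.96). On that array Sparc read 8.15 by 1416589_at and 5.92 by 1448392_at (CD34+ medians 8.08 and 5.84). By 1458204_at it read 5.19, the lowest CD34+ value of that probe set. Fstl1 read 6.01 by 1416221_at and 5.54 by 1448259_at there (CD34+ medians 6.10 and 5.70). These medians include the compressed arrays 1, 3 and 5. CD34+ arrays 2 and 6 read higher than array 4 for Sparc by 1416589_at (8.18 and 8.25) and 1448392_at (6.26 and 5.97). They also read higher for Fstl1 by 1416221_at (8.03 and 6.19) and 1448259_at (7.50 and 5.86). The part of fibroblasts in the Sparc and Fstl1 values was not tested. The smooth muscle and pericyte list mean was 4.91 to 5.42 in CD34+ and 4.68 to 4.87 in CD34- arrays, and the melanocyte list mean 5.23 to 5.60 in CD34+ and 4.86 to 5.18 in CD34- arrays, both also without overlap. The smooth muscle and pericyte mean was 5.13 to 5.42 on CD34+ arrays 1, 3 and 5 and 4.91 to 4.99 on CD34+ arrays 2, 4 and 6. Without arrays 1, 3 and 5 its genes ran from -0.79 (Acta2) to 1.24 (Cspg4). In the melanocyte list Mitf (3.13) and Sox10 (0.49), which is also in the Schwann cell list, passed as higher. Tyrp1 (-0.67) passed as lower. Dct (-0.36), Pmel (-0.26), Mlana (-0.00052), Tyr (0.40) and Kit (0.34) did not pass. Of 10 smooth muscle and pericyte markers 3 were higher and 0 lower, of 8 melanocyte markers 2 and 1, of 5 measured Schwann cell markers 1 and 1, of 9 Langerhans and myeloid markers 0 and 5, and of 10 bulge keratinocyte markers, Cd34 among them, 9 and 0.

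**Figure D4:**
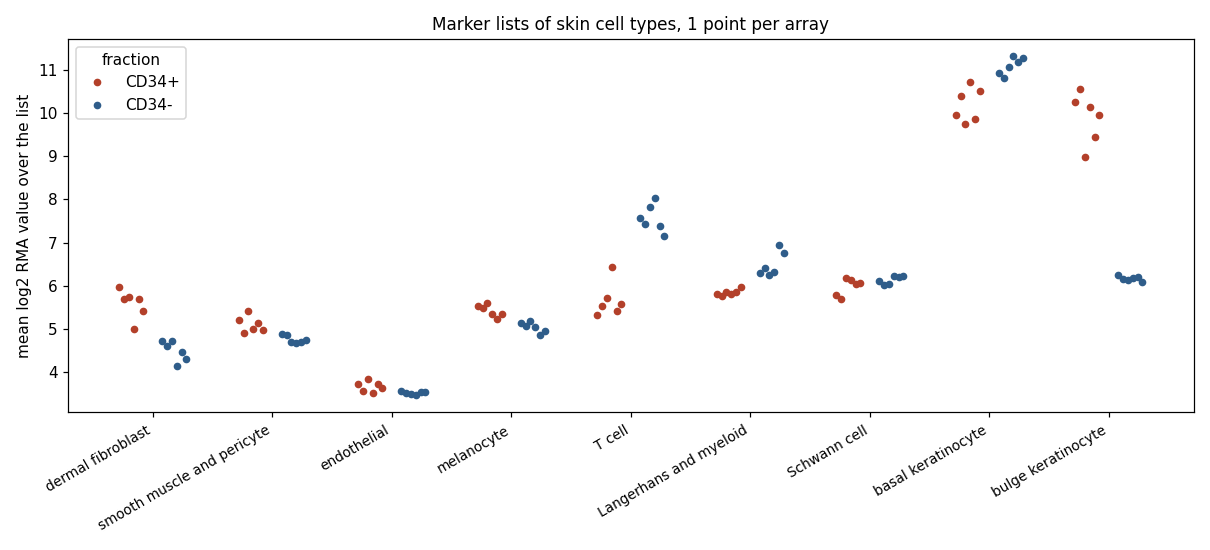
Mean log2 RMA value (vertical axis) of each of 9 lists of cell type markers on each array, CD34+ arrays left of CD34- arrays within a list. Dermal fibroblast, smooth muscle and pericyte, melanocyte and bulge keratinocyte lists were higher on all CD34+ arrays than on any CD34- array, T cell, Langerhans and basal keratinocyte lists were lower, and the endothelial list lay at 3.52 to 3.85 in CD34+ and 3.46 to 3.55 in CD34- arrays. Within the melanocyte list the log2 difference was 3.13 for Mitf and -0.67 for Tyrp1.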

How the data were processed

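Biotin-labelled total RNA of both fractions was hybridised to 1-colour Affymetrix mouse arrays. Per the submitters' processing notes the deposited log2 values were made with RMA, whose version, and whether all 12 arrays were normalized together, are not given in the sources used here. Of 45101 probe sets, 64 controls were set aside. By the platform's annotation at GEO, whose symbols were brought up to date by Entrez identifier, 34945 of the remaining 45037 probe sets belong to a single gene, 932 match several and 9160 have none.

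Fractions were compared over all 45037 probe sets by linear models with moderated two-sided tests (limma 3.58.1 under R 4.3.3) and Benjamini-Hochberg adjustment, without a block and without further normalization. The number of arrays limits the precision. The labels do not say that arrays are separate cultures or animals beyond the 3 pools, so p-values measure the spread between arrays, part of which is technical. The members and all lists were chosen with earlier results of these data known. The rule for named genes took all 8 members, and of each related list up to 3 genes that passed, by size of change, and up to 2 with the highest mean. Alternatives comprised the array number as a block, means of arrays 1-2, 3-4 and 5-6, omission of arrays, other scalings, a filter on means under 5, 1 probe set per gene, a variance trend and array weights. The comparison of CD34+ arrays 1, 3 and 5 alone with CD34- was chosen after seeing the data. Figures were drawn with matplotlib 3.10.9. No label says whether array numbers pair the fractions. Over all probe sets the deviations of same-numbered arrays correlated at -0.24 to 0.49. For numbers 1, 4 and 6 (r = 0.43, 0.49 and 0.40) the same-numbered CD34- array was the most similar to the CD34+ array. For numbers 2, 3 and 5 it was not, so pairing was left undecided.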

Additional observations from a re-analysis of the deposited data

Results flagged for a closer look

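By 1 of 30 checks for an array far from the other 5 of its fraction (15 probe sets in each fraction, by Dixon's ratio of gap to range, here 0.749), Spock2 1435026_at on CD34- array 3 stood apart, at 4.91 against 4.72 for the nearest array. Chance marks about 5% of such groups.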

How the results depend on the processing

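Sparc (1416589_at and 1448392_at), Smoc1, Smoc2 (1415935_at) and both Fstl1 probe sets passed in the same direction in every alternative that tested them. Over the 15 probe sets and their alternatives, 308 differences moved by less than the SD between arrays and 5 moved by more, and 0 of those that passed changed sign. The family counts, 5 higher and 2 lower, were 5 and 1 without CD34+ arrays 1, 3 and 5. With only probe sets averaging 5 or more, which removed 10 of the 15, they were 2 and 2, and with 1 probe set per gene 3 and 1 genes, counts set by the smaller number of probe sets tested. On leaving out single arrays the lower count was 1 to 2 and the higher count 5 to 6. With the array number as a replicate block, the family counts were 5 and 2 and all calls 10209 against 9704. Whether the numbers pair the fractions is not known. With means of arrays 1-2, 3-4 and 5-6 the family counts were 6 and 2, with Sparc 1458204_at added. Related genes that rose numbered 9 with the filter at 5, against 16, and 11 rose and 11 fell after median centring. On leaving out single arrays 11 to 20 of them rose and 6 to 11 fell. Those that rose numbered 11 or 12 whichever CD34- array was left out. Over all probe sets the calls were 4750 with 1 probe set per gene, and 52.8% of calls were lower without CD34+ arrays 1, 3 and 5. Values near the Trpn controls limit what can be said of Spock3 and of Fstl1 in CD34- cells.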
